A study of Mus musculus with 35 samples.

Results

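Microglia sorted from the striatum were compared with microglia sorted from the midbrain of the same adult mice, using all 24 samples of these regions (12 striatum, 12 midbrain) out of 35 in the series. The other 11 samples came from the prefrontal cortex. They entered the fit only to share its estimate of the spread between samples. Members were chosen by the region given in the labels, and all 21236 genes of the deposited count table were tested.

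The mice carried 1 copy each of the Tmem119-2A-CreERT2 and Ai14(RCL-tdTomato)-D alleles and had received tamoxifen, so that cells expressing Tmem119 at the time of treatment were permanently marked by tdTomato. All samples of both regions share these alleles and this treatment. Each sample is the tdTomato-positive fraction of 1 region of 1 mouse, collected by fluorescence-activated cell sorting after the tissue had been dissociated. There were 6 male and 6 female mice, and the S number in the sample titles was read as the number of the mouse, which links its striatum and midbrain. The labels do not state that link outright, and every count of mice rests on it. The Cre line limits what is seen to cells in which the Tmem119 locus was active, and any cell or fragment that carried tdTomato through the sort would be included.

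Microglia are the resident macrophages of the brain parenchyma. They settle in the brain before birth, renew themselves locally and survey the tissue through P2RY12, CX3CR1 and related receptors. The striatum and midbrain are joined by the nigrostriatal dopamine pathway, the target of Parkinson's disease, and microglia of the ventral midbrain are known to differ from those of the forebrain in density, shape and immune gene expression. The comparison asked which genes separate the microglia of these regions in healthy adult animals.

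The 24 libraries held between 39462648 and 54131421 counts and detected between 17714 and 19671 genes. The floor of detection, set at 3 counts, lay between 0.0554 and 0.076 counts per 1000000 raw counts. All other levels are in CPM (counts per 1000000 counts of the TMM-scaled library). Microglial identity was clear in every library: Tmem119 ranged from 2778 to 3861 CPM and P2ry12, the purinergic receptor by which microglia sense ADP, from 5481 to 8644 CPM. Striatum and midbrain labels were checked against transcripts of local neurons. Arpp21, a phosphoprotein of dopamine-innervated projection neurons, ranged from 0.711 to 3.79 CPM in the striatum and from 0 to 0.407 CPM in the midbrain, without overlap. One column of the table bore a cortical name although its label gives the striatum of mouse 3, and its values are reported under the label. Arpp21 does not settle that point, since the cortex, at 0.0215 to 2.10 CPM, overlapped the striatum. The midbrain library of mouse 6 stood apart, with the highest levels of the MHC class II genes H2-Aa, H2-Ab1, H2-Eb1 and Cd74, of the border macrophage gene Ms4a7 (97.9 CPM) and of the immunoglobulin gene Igkc (352.2 CPM). Results that turn on it are given with and without it.

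Of 21236 genes, 888 (4.18%) were higher and 695 (3.27%) lower in the striatum, 1583 (7.45%) in all. A gene was called when the adjusted p of edgeR's quasi-likelihood test, corrected over all genes by the Benjamini-Hochberg method, was under 0.05. Fold changes are given as log2 of striatum over midbrain (log2FC), so a negative value means lower in the striatum. Restricting to the 12547 genes whose mean reached 1 CPM left 673 higher and 645 lower, of which 111 and 121 exceeded 2-fold. All 12 mice had the same direction for 280 of the higher and 215 of the lower genes. The CPM ranges of the regions did not overlap for 30 genes higher in the striatum (0.141% of all genes) and 33 lower (0.155%). The sorted samples are bulk RNA, so fewer cells of a state or type and less RNA per cell cannot be told apart. Called genes differed in base composition: the median GC content of the transcripts was 54.52% for those higher and 47.26% for those lower in the striatum, against 49.54% over all genes of at least 1 CPM. With GC content and length trends of each library removed, 755 genes were higher and 953 lower. With an index of 69 markers of other brain cells as a covariate, 254 were higher and 423 lower. The index was the mean scaled level of the neuron, astrocyte, oligodendrocyte and endothelial markers in the table. Markers of other cell types and of striatal neurons were not in it.

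**Figure D1:**
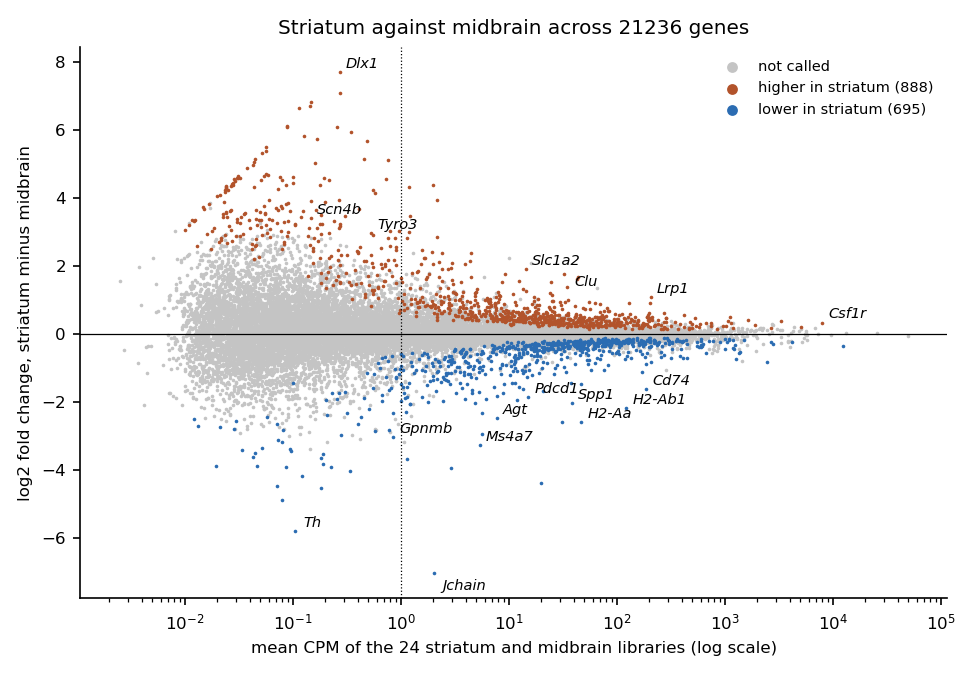
Each point is 1 of 21236 genes, with the mean CPM over the 24 samples on the x axis (log scale) and the log2FC of striatum over midbrain on the y axis. The 888 genes called higher and the 695 called lower are coloured, and called genes of moderate and high level lie mostly within a few log2 units of 0.

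Genes most clearly lower in the striatum included immune receptors and actin-linked proteins. Pdcd1 encodes the inhibitory receptor PD-1 (chromosome 1, 94038305 to 94052553, minus strand, GRCm38). It ranged from 2.78 to 12.3 CPM in the striatum (median 6.11) and from 15.3 to 40.2 CPM in the midbrain (median 23.2). The ranges did not overlap, and the log2FC was -1.87 (SE 0.181, adjusted p = 1.06e-08). Gpr65, a proton-sensing receptor on chromosome 12, ranged from 5.66 to 17.3 CPM in the striatum and from 21.1 to 54.1 CPM in the midbrain. These ranges were also apart, with a log2FC of -1.69 (SE 0.168, adjusted p = 1.71e-08). Capg, an actin-capping protein of macrophages on chromosome 6, ranged from 28.6 to 51.0 CPM in the striatum and from 58.3 to 100.8 CPM in the midbrain. Every striatum sample lay below every midbrain sample (log2FC -1.08, SE 0.0996, adjusted p = 6.35e-09). Anxa5, which binds exposed phosphatidylserine, ranged from 71.3 to 91.5 CPM against 105.6 to 143.1 CPM, again without overlap (log2FC -0.54, SE 0.053, adjusted p = 1.47e-08).

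The lowest adjusted p of all genes belonged to Stbd1, which anchors glycogen to membranes. Its striatal range was 5.97 to 11 CPM and its midbrain range 13.5 to 25 CPM (log2FC -1.16, SE 0.105, adjusted p = 6.08e-09). Spp1, the secreted protein osteopontin, ranged from 3.62 to 38.8 CPM in the striatum (median 12.3) and from 17.3 to 142.1 CPM in the midbrain (median 47.1). It was lower in the striatum of all 12 mice although the ranges overlapped (log2FC -2.05, SE 0.419, adjusted p = 0.00175). Tnfsf13b, the B-cell survival factor BAFF, ranged from 11 to 27.7 CPM against 27.5 to 43.7 CPM (log2FC -1.01, SE 0.105, adjusted p = 3.91e-08). Further genes lower in all 12 mice without overlap were Ctla2b (log2FC -1.28), a cysteine protease inhibitor, Tcim (-1.76), Slc2a6 (-1.70), a sugar transporter of the lysosome, Cox6a2 (-1.57), a subunit of cytochrome c oxidase, and Fxyd5 (-1.62), a regulator of the sodium pump. Gcnt2 (-0.77), which branches cell-surface glycans, and Cyp4f18 (-1.74), which inactivates leukotriene B4, were lower in all 12 mice with overlapping ranges. The largest difference among the genes named for their size was that of Agt, angiotensinogen, which in the brain is chiefly an astrocyte product. Agt ranged from 0 to 10.8 CPM in the striatum and from 4.03 to 21.5 CPM in the midbrain (log2FC -2.48, SE 0.615, adjusted p = 0.00972).

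Genes most clearly higher in the striatum included receptors and lipid carriers. Lrp1, a large endocytic receptor for apolipoproteins on chromosome 10, ranged from 187.6 to 374.0 CPM in the striatum (median 280.2) and from 88.07 to 192.3 CPM in the midbrain (median 134.1). Only the ends of these ranges met (log2FC 1.09, SE 0.133, adjusted p = 1.21e-06). Abcg1, which exports cholesterol, ranged from 206.7 to 293.6 CPM in the striatum and from 130.2 to 192.2 CPM in the midbrain. Its ranges were apart (log2FC 0.60, SE 0.0788, adjusted p = 3.46e-06). Ptger3, the prostaglandin E2 receptor EP3 (chromosome 3, 157566892 to 157645888, plus strand), ranged from 5.12 to 19.8 CPM against 1.65 to 8.10 CPM and was higher in all 12 mice (log2FC 1.52, SE 0.216, adjusted p = 1.23e-05). Gas6, the ligand that bridges phosphatidylserine to the TAM receptors, ranged from 192.3 to 262.9 CPM against 142.2 to 193.5 CPM, also higher in all 12 (log2FC 0.45, SE 0.0545, adjusted p = 8.72e-07). Among genes of at least 5 CPM, the smallest adjusted p of a gene higher in the striatum was that of Ecscr, a membrane protein first described in endothelial cells. Its ranges were apart, at 197.6 to 271.3 CPM and 150.9 to 194.9 CPM (log2FC 0.47, SE 0.0547, adjusted p = 4.32e-07). Ranges were likewise apart for Angptl7 (log2FC 0.97), a secreted angiopoietin-like protein, and for Whrn (1.0), a scaffold protein best known from hair cells.

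Several of the largest increases in the striatum were genes known from other brain cells. Clu, clusterin, ranged from 17.9 to 78.1 CPM in the striatum (median 57.2) and from 8.15 to 21.2 CPM in the midbrain (median 13.1), with a log2FC of 1.77 (SE 0.33, adjusted p = 0.000671). Slc1a2, the glutamate transporter GLT-1 of astrocytes, ranged from 9.02 to 36.9 CPM against 2.65 to 8.98 CPM without overlap (log2FC 1.91, SE 0.306, adjusted p = 8.48e-05). Ptn (log2FC 2.13), the growth factor pleiotrophin, Kif5a (2.07), a neuronal kinesin, and Gpm6b (1.03), a glial membrane protein, were also higher in all 12 mice. With the index of other brain cells as a covariate, the log2FC of Clu was 0.66 (adjusted p = 0.0138) and that of Slc1a2 1.09 (adjusted p = 0.00208), while Ptn (1.25, adjusted p = 0.082) and Gpm6b (0.45, adjusted p = 0.0729) lost their calls. The index holds Clu and Slc1a2 themselves, so each was adjusted for a covariate that contains it. In that fit Kif5a had a log2FC of 1.38 (adjusted p = 0.0262), Lrp1 of 0.77 (adjusted p = 0.00017) and Ccdc88b of 1.04 (adjusted p = 0.00338). Ccdc88b, a microtubule-linked protein of immune cells, ranged from 18.2 to 68.7 CPM against 6.05 to 21.7 CPM (log2FC 1.51, SE 0.228, adjusted p = 3.15e-05). Further genes higher in all 12 mice were Mgll (log2FC 0.48), which breaks down the endocannabinoid 2-arachidonoylglycerol, Slc39a12 (0.68), a zinc transporter, and Lzts2 (0.98), a regulator of microtubule severing. Gm13889 (1.22) and 2900026A02Rik (1.05) also passed the rule for named genes.

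**Figure D2:**
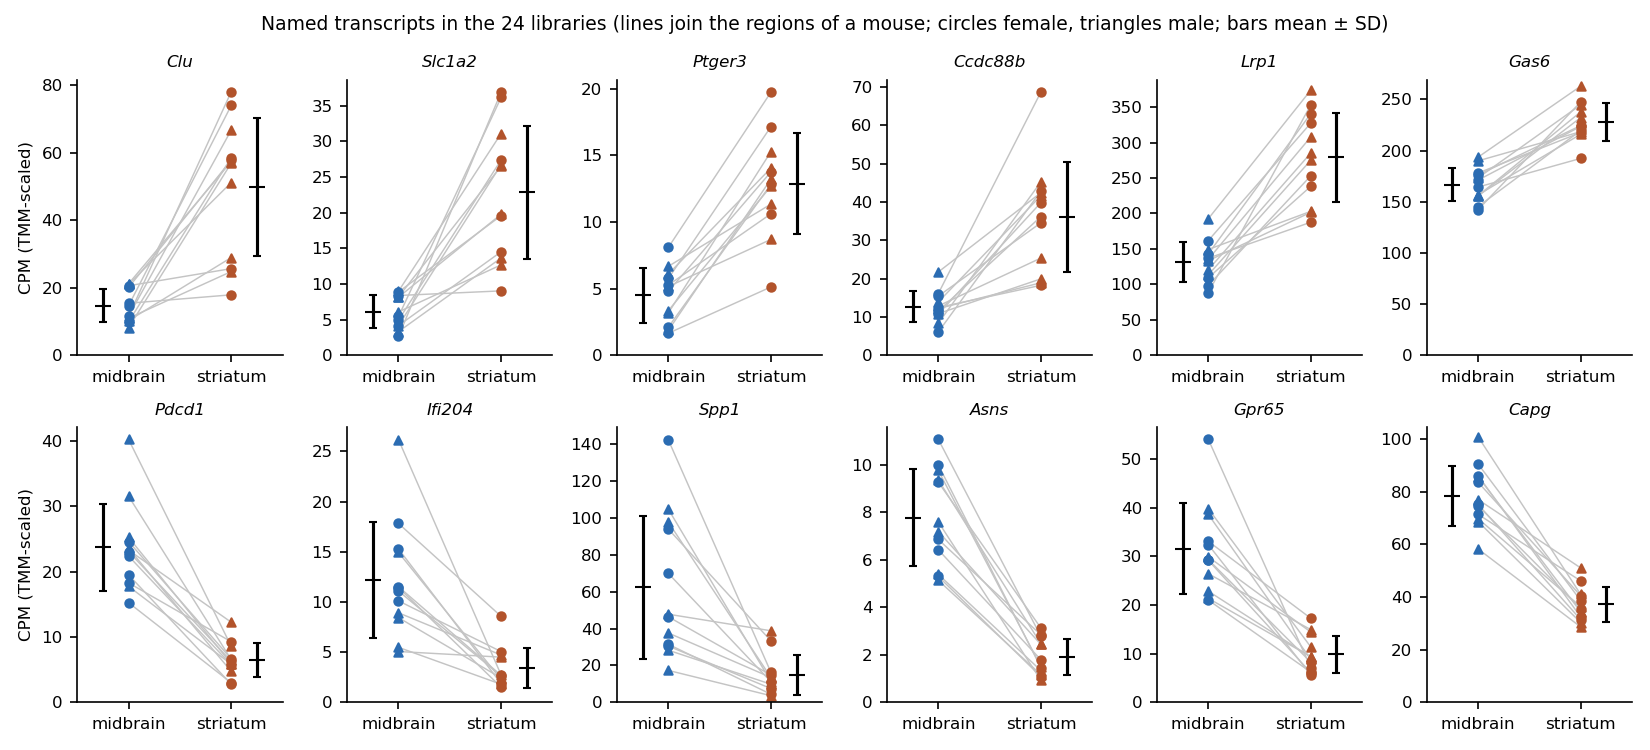
CPM of 12 named genes in each of the 24 samples, with circles for female and triangles for male mice and bars for the mean and SD of each region (n = 12). The upper panels show genes higher in the striatum and the lower panels genes lower in the striatum; the ranges of Slc1a2, Pdcd1, Asns, Gpr65 and Capg do not overlap.

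Gene groups were then described by their members. Counts of called members are to be read against 4.18% higher and 3.27% lower over all genes, and the median log2FC of all genes was 0.01. A call is said to be kept in every leave-one-out fit when it passed in each fit that left out 1 mouse or 1 of 2 single libraries, namely the striatum of mouse 3 and the midbrain of mouse 6.

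**Figure D3:**
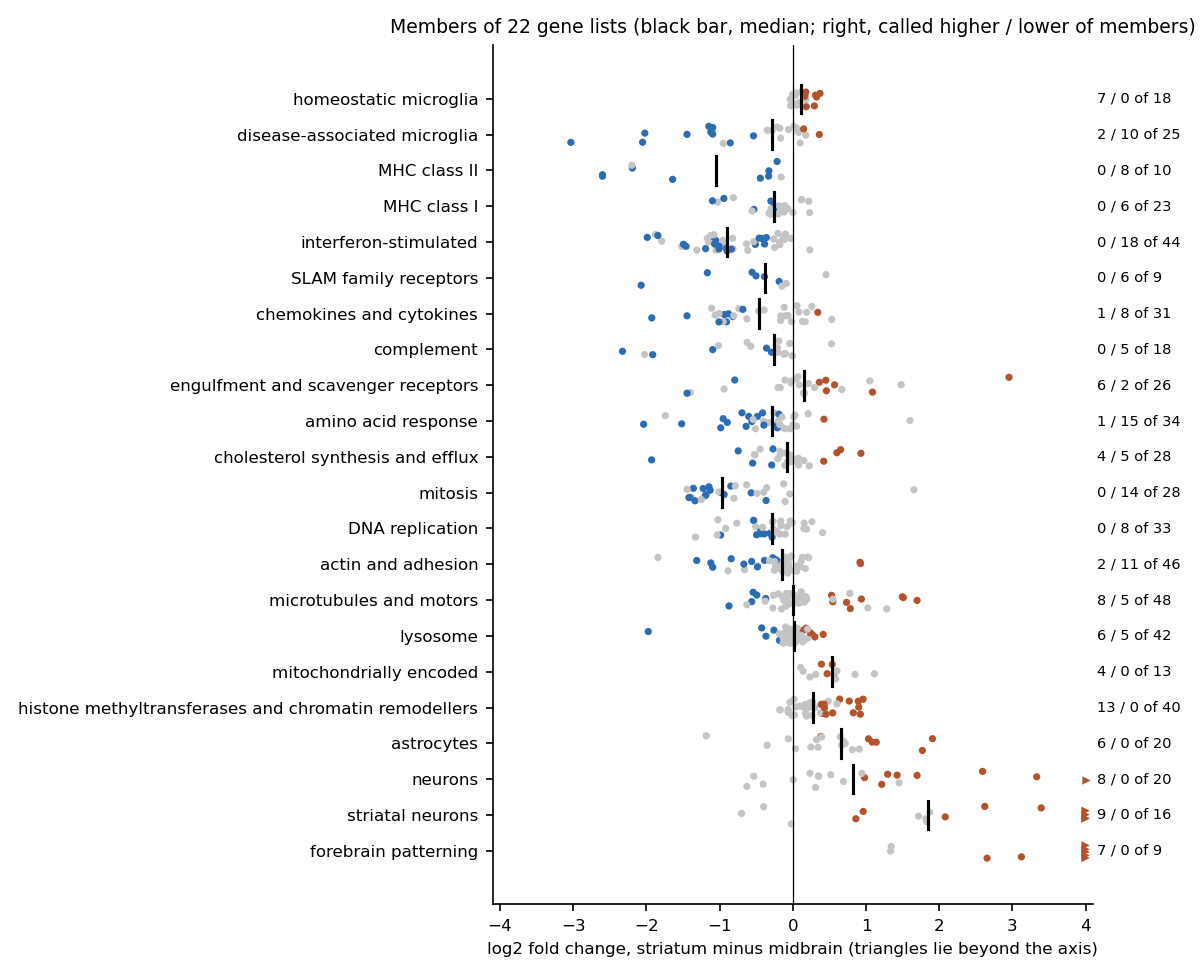
The log2FC of striatum over midbrain for every member of 22 gene lists, with a bar at the median of each list and the number of members called higher and lower beside it. Triangles mark members beyond 4 log2 units; members of the MHC class II, interferon-stimulated and mitosis lists lie almost wholly below 0.

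Homeostatic microglial genes were modestly higher in the striatum or did not pass the test. Of 18 genes, 7 were higher and 0 lower, with a median log2FC of 0.11, and 4 of the 7 calls were kept in every leave-one-out fit. Siglech, a sialic acid-binding receptor, ranged from 1143 to 1394 CPM in the striatum and from 920.7 to 1125 CPM in the midbrain. Its ranges were apart (log2FC 0.31, SE 0.0504, adjusted p = 8.48e-05). Fcrls, an Fc receptor-like gene typical of microglia, ranged from 3111 to 4502 CPM against 2387 to 3339 CPM (log2FC 0.37, adjusted p = 3.09e-05). Csf1r, the receptor on which microglial survival depends, had a median of 8894 CPM against 7308 CPM (log2FC 0.33, adjusted p = 0.0125). Sall1, a transcription factor that maintains microglial identity, had medians of 211.9 and 170.7 CPM (log2FC 0.29, adjusted p = 0.00615). All 4 were higher in all 12 mice. With the index of other brain cells as a covariate, 5 of the 18 genes were called higher, and Csf1r lost its call (adjusted p = 0.357). The calls of Slc2a5, Selplg and P2ry13 were small (log2FC 0.17 to 0.18) and depended on single mice: 4 genes remained called without mouse 8 or mouse 12. P2ry12 (log2FC 0.18, adjusted p = 0.0711), Tmem119 (0.10, adjusted p = 0.279) and Cx3cr1 (0.09, adjusted p = 0.307) did not pass.

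Genes that define disease-associated microglia, a state described around amyloid plaques and in ageing white matter, were called lower in the striatum for 10 of 25 members and higher for 2, with 13 not called (median log2FC -0.28). All 12 calls were kept in every leave-one-out fit. The summed level, set by a few abundant members, had medians of 41450 CPM in the striatum and 41040 CPM in the midbrain and was higher in the striatum of 8 mice. Emp3, a small membrane protein, ranged from 13.1 to 33.8 CPM in the striatum and from 37.5 to 57.5 CPM in the midbrain, without overlap (log2FC -1.12, SE 0.129, adjusted p = 3.52e-07). Axl, a TAM receptor of activated microglia, ranged from 8.42 to 39.3 CPM (median 15.8) against 24.9 to 92.1 CPM (median 49.4), and was lower in 11 of 12 mice (log2FC -1.45, SE 0.255, adjusted p = 0.000301). Clec7a, the beta-glucan receptor Dectin-1, ranged from 7.17 to 22.6 CPM against 18.1 to 47.4 CPM (log2FC -1.15, SE 0.2, adjusted p = 0.000224). The integrin Itgax had medians of 6.94 and 17.2 CPM (log2FC -1.09, adjusted p = 0.00079), the galectin Lgals3 of 6.93 and 13.8 CPM (-1.09, adjusted p = 0.000436), and lipoprotein lipase, Lpl, of 14.2 and 26.8 CPM (-0.85, adjusted p = 0.0139). Gpnmb (log2FC -3.03) and Ch25h (-2.02), which makes 25-hydroxycholesterol, were called at medians under 1 CPM in the striatum. Cd68, a lysosomal membrane protein, was higher in the striatum of all 12 mice, with medians of 1214 and 910 CPM (log2FC 0.36, adjusted p = 3.14e-05), as was Timp2 (0.15). Apoe varied widely in both regions, from 159.6 to 1042 CPM and from 200.5 to 2257 CPM, and did not pass (log2FC -0.22, adjusted p = 0.793). Cst7, a further gene of this state, had a log2FC of -0.28 (adjusted p = 0.172).

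MHC class II genes, whose products present peptides to CD4 T cells, were lower in the striatum. Of 10 genes, 8 were lower and 0 higher (median log2FC -1.04), 4 of these calls were kept in every leave-one-out fit, and the summed level was lower in the striatum of all 12 mice, at 609.4 to 972.1 CPM against 812.9 to 4423 CPM. H2-DMa, which loads peptides, ranged from 257.5 to 372.6 CPM in the striatum and from 333.3 to 539.5 CPM in the midbrain (log2FC -0.44, SE 0.0683, adjusted p = 3.72e-05). H2-Ob, which regulates that loading, ranged from 48.4 to 64.5 CPM against 60.6 to 88.4 CPM (log2FC -0.33, adjusted p = 0.00274). Both were lower in all 12 mice. H2-Ab1, a chain of the peptide-binding molecule I-A, ranged from 16 to 97.6 CPM (median 37.3) against 36 to 1187 CPM (median 85.1), a log2FC of -2.19 (SE 0.478, adjusted p = 0.00343). The size of that difference turned on 1 library. Without the midbrain of mouse 6, the log2FC of H2-Ab1 was -1.24 (adjusted p = 0.00939).

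The calls of H2-Aa (log2FC -2.60), H2-Eb1 (-2.60) and Cd74 (-1.64), the invariant chain, were lost without the midbrain of mouse 6 (-1.31, -1.29 and -0.82, adjusted p = 0.124, 0.0981 and 0.136). They were also lost with mouse as a block (-1.60, -1.52 and -1.0, adjusted p = 0.160, 0.169 and 0.161). Without mouse 11, whose midbrain library was the next highest in H2-Ab1 (389.5 CPM), the calls of H2-Aa (-2.45, adjusted p = 0.0575) and Cd74 (-1.43, adjusted p = 0.0696) were lost too. In each of these 3 fits 5 of the 10 genes remained called. Ciita, the master regulator of the class, did not pass (log2FC -2.20, adjusted p = 0.0919). Markers of border macrophages, the macrophages of meninges and vessels that express this class strongly, moved with the library of mouse 6: Ms4a7 was 97.9 CPM there, against a midbrain median of 2.26 CPM. The defining border gene Cd163 had a median of 0 CPM in both regions and Mrc1 did not pass (log2FC -0.12, adjusted p = 0.886). The summed level of 15 border macrophage genes ranged from 114.3 to 201.5 CPM in the striatum and from 92.2 to 251.2 CPM in the midbrain, with mouse 6 highest, and their part in the MHC class II result was not tested.

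Promoters of H2-Eb1 and H2-Aa, whose midbrain levels had the widest ranges in proportion among the called class II genes, are shown because class II promoters share a CCAAT box within the X-Y module bound by NF-Y. Sequences are from the RefSeq promoter table (GRCm38.p6), read 5′ to 3′ on the gene's strand, with CCAAT or its reverse complement ATTGG in capitals.
H2-Eb1 (chr17:34305787-34305866, plus strand): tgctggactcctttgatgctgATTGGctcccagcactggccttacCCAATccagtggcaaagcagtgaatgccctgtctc
H2-Aa (chr17:34287824-34287916, minus strand): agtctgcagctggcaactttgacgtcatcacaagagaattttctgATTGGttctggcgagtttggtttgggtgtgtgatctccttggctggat
CCAAT was searched on both strands in the 250 bases before the start site. It lay in 7 of 7 class II genes with an entry, 6 called and 1 not called, against 39.7% of the 12441 tested genes with an entry and 33.8% of all 32851 start sites. A match of 5 letters describes the sequence and not a bound site.

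Of 23 MHC class I and antigen-processing genes, 6 were lower and 0 higher (median log2FC -0.25), but only H2-D1 kept its call in every leave-one-out fit. H2-D1, a classical class I heavy chain, ranged from 902.8 to 1611 CPM in the striatum and from 1062 to 3358 CPM in the midbrain and was lower in all 12 mice (log2FC -0.53, SE 0.13, adjusted p = 0.00798). B2m, the light chain, had medians of 2380 and 3138 CPM (log2FC -0.30, adjusted p = 0.0221), and lost the call without mouse 2 (adjusted p = 0.0624), 11 (0.0771) or 12 (0.0537). The count of called genes fell to 1 without mouse 11 and to 2 without mouse 2. With mouse as a block, 11 genes were lower and 2 higher, and DESeq2 called 10 lower. Reads of the H2 heavy-chain genes can be shared among near-identical copies, so values of single members are uncertain.

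Interferon-stimulated genes, which are induced by type I interferon and restrict viruses, included many that were lower in the striatum. Of 44 genes, 18 were lower and 0 higher, 43 had a negative log2FC and the median was -0.90. The summed level was lower in the striatum of all 12 mice, at 511.5 to 913.5 CPM against 687.3 to 1559 CPM. Slfn2, which restrains immune cell activation, ranged from 34.4 to 81.6 CPM in the striatum and from 67.7 to 130.6 CPM in the midbrain (log2FC -1.07, SE 0.151, adjusted p = 1.2e-05). Ifi204, an AIM2-like sensor of DNA, ranged from 1.52 to 8.57 CPM against 5.07 to 26.2 CPM (log2FC -1.84, SE 0.327, adjusted p = 0.000301). Ifi209 (log2FC -1.49) and Ifi207 (-1.99) belong to the same cluster of similar genes on chromosome 1, among which reads may be split. Ifi27l2a, an interferon-induced mitochondrial protein, ranged from 3.12 to 21.8 CPM against 8.15 to 24.4 CPM (log2FC -1.46, adjusted p = 0.000779). Isg15, a ubiquitin-like modifier, ranged from 2.76 to 8.35 CPM against 4.47 to 30.3 CPM (log2FC -1.05, SE 0.256, adjusted p = 0.00764). The guanylate-binding protein gene Gbp2 (-0.84), Oas1a (-0.90), which makes the activator of RNase L, and Trim30a (-0.36) were also called. These 9 genes kept their calls in every leave-one-out fit.

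The other 9 calls of the interferon list depended on single mice. The number called ranged from 12, without mouse 2, 5 or 11, to 26 over the leave-one-out fits. It was 8 when mice 1 to 6 were fitted alone, 3 when mice 7 to 12 were, and 23 with mouse as a block. With the index of other brain cells as a covariate, 8 of the 44 genes were called lower. The midbrain of mouse 5 held the highest levels of Isg15 (30.3 CPM) and of Ifit3 (57.8 CPM). Without that mouse, Ifit3 had a log2FC of -0.55 (adjusted p = 0.217), compared with -1.19 (adjusted p = 0.0403) with it. Irf7, a transcription factor of the interferon response, had a log2FC of -0.95 and did not pass (adjusted p = 0.0602).

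Promoter stretches of 4 called members are shown for the interferon-stimulated response element, the site of ISGF3 and IRF proteins. The search was for GAAA followed, after any 2 bases, by GAAA again, on both strands, and matches, including overlapping ones, are in capitals.
Trim30a (chr7:104465194-104465274, minus strand): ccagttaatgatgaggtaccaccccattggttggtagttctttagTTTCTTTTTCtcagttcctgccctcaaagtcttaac
Isg15 (chr4:156200830-156200929, minus strand): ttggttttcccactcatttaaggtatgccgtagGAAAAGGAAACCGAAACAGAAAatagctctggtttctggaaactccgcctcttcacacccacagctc
Ifi207 (chr1:173741810-173741895, minus strand): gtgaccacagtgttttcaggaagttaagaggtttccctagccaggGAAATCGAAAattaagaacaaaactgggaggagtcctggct
Gbp2 (chr3:142620594-142620623, plus strand): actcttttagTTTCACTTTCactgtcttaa
The element lay in 18 of the 33 list members with a promoter entry, 9 of 13 called and 9 of 20 not called, against 3.36% of the tested genes with an entry and 2.98% of all start sites.

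Signalling lymphocytic activation molecule (SLAM) receptors, which bind one another between haematopoietic cells, were mostly lower in the striatum. This list was added after the values had been seen. Of 9 genes, 6 were lower and 0 higher, and 5 calls were kept in every leave-one-out fit. Slamf8, a macrophage receptor that tempers superoxide production, ranged from 21.3 to 38.5 CPM in the striatum and from 36.2 to 57.3 CPM in the midbrain (log2FC -0.56, SE 0.0918, adjusted p = 0.000101). Slamf9 ranged from 97.9 to 164.4 CPM against 126.8 to 293.8 CPM (log2FC -0.50, adjusted p = 0.0023). Both were lower in all 12 mice, as was Slamf6 (-0.39, adjusted p = 0.000167). Cd244a (-1.17) and Cd84 (-0.19) were lower in 11 and 10 mice. Slamf7 (-2.07) lost its call without the midbrain of mouse 6 (-1.28, adjusted p = 0.187) and with mouse as a block (-1.72, adjusted p = 0.0689). Slamf1 did not pass (0.45, adjusted p = 0.052).

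Of 26 immune checkpoint and costimulation genes, 4 were lower and 3 higher in the striatum, against 5 and 5 with mouse as a block. Beside Pdcd1, Cd300lf, an inhibitory lipid receptor, was lower (log2FC -1.27, adjusted p = 0.00387) at medians of 1.49 and 3.40 CPM. Without mouse 11, Pdcd1 and Cd300lf were the only 2 called lower. In the opposite direction, the inhibitory receptor gene Lag3 ranged from 63.8 to 102.4 CPM against 30.0 to 73.8 CPM and was higher in all 12 mice (log2FC 0.64, SE 0.128, adjusted p = 0.00128). Cd300a, a phosphatidylserine receptor, was higher in all 12 as well (0.34, adjusted p = 6.81e-05), and Cd47, the "do not eat me" ligand, in 11 (0.24, adjusted p = 0.0028).

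Called cytokine and chemokine genes were mostly lower in the striatum. Of 31 genes, 8 were lower and 1 higher. Il1a, the alarmin interleukin-1 alpha, ranged from 439.6 to 2504 CPM in the striatum (median 1887) and from 1149 to 4328 CPM in the midbrain (median 3097), and was lower in 11 of 12 mice (log2FC -0.82, SE 0.186, adjusted p = 0.00476). Ccl12, a monocyte chemokine, ranged from 58.3 to 192.7 CPM against 164.7 to 402.6 CPM (log2FC -0.88, SE 0.146, adjusted p = 0.000111). Tnfsf8, the CD30 ligand, was lower in all 12 mice (-1.45, adjusted p = 0.0166). With Tnfsf13b, these kept their calls in every leave-one-out fit and were the 4 left without mouse 12. Tnf had medians of 197 and 303.4 CPM (-0.68, adjusted p = 0.0219) and lost its call without mouse 2 (adjusted p = 0.0578) or 12 (0.052). Among 35 cytokine and chemokine receptors, the common gamma chain Il2rg (log2FC -0.93, adjusted p = 0.000182), the interleukin-1 receptor Il1r1 (-1.37, adjusted p = 0.00139) and Ccr1 (-1.10, adjusted p = 0.019) were lower, and with mouse as a block 6 were. Of 4 called higher, only Csf1r remained without mouse 11, and 0 were called higher with the index of other brain cells as a covariate.

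Prostaglandin E2 receptors went in opposite directions. Ptger4, the EP4 receptor, ranged from 4.11 to 9.42 CPM in the striatum and from 9.10 to 43.1 CPM in the midbrain and was lower in 11 of 12 mice (log2FC -1.55, SE 0.218, adjusted p = 1.04e-05), whereas Ptger3 was higher. Hcar2, the receptor for nicotinate and beta-hydroxybutyrate, ranged from 8.83 to 42.2 CPM against 40.3 to 105.4 CPM (log2FC -1.49, SE 0.24, adjusted p = 8.95e-05). S1pr1, a sphingosine-1-phosphate receptor, had medians of 152.2 and 105.4 CPM and was higher in all 12 mice (log2FC 0.50, adjusted p = 0.000247). In all, 6 of 30 purinergic, lipid and metabolite receptor genes were lower and 4 higher, and 4 and 3 of these kept their calls in every leave-one-out fit. Gpr35 (-0.52) and Gpr165 (0.54) completed that set.

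Of 25 Toll-like receptor pathway genes, 6 were lower and 1 higher, with 3 lower genes left without mouse 10 or 11. Tlr2, a receptor for bacterial lipoproteins, ranged from 179.9 to 407 CPM against 298.9 to 699.9 CPM (log2FC -0.65, SE 0.133, adjusted p = 0.0017). Cd14, its co-receptor, had medians of 857.4 and 1080 CPM (-0.44, adjusted p = 0.00605), and Tlr13, a receptor for bacterial ribosomal RNA, of 221.2 and 261.1 CPM (-0.27, adjusted p = 0.00128). Each was lower in 11 of 12 mice. The flagellin receptor Tlr5 was higher at a low level, with medians of 12.9 and 9.19 CPM (0.53, adjusted p = 0.000369). Of 18 complement genes, 5 were lower. The integrins Itgb2 (log2FC -0.36, adjusted p = 2.83e-05) and Itgax kept their calls in every leave-one-out fit. C4b, a component of the classical pathway, ranged from 0.0933 to 8.37 CPM against 1.73 to 31.0 CPM (-2.33, adjusted p = 0.0102) and lost its call without mouse 7 (-1.90, adjusted p = 0.0559). Without the midbrain of mouse 6, 3 complement genes were called. Cybb, the catalytic subunit of the phagocyte NADPH oxidase, ranged from 1.46 to 10.3 CPM against 5.62 to 77.9 CPM (log2FC -1.96, SE 0.407, adjusted p = 0.00197). It kept its call without the midbrain of mouse 6, at -1.55 (adjusted p = 0.00433). Ncf4, a cytosolic subunit, was lower in all 12 mice (-0.22, adjusted p = 0.00466), and the other 6 of 8 oxidase genes were not called.

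Called engulfment receptors and bridging molecules were mostly higher in the striatum. Of 26 genes, 6 were higher and 2 lower, and all 6 higher calls were kept in every leave-one-out fit. Beside Lrp1, Gas6 and Cd68, Mfge8, which bridges phosphatidylserine to integrins, ranged from 45 to 85.4 CPM against 41.1 to 55.2 CPM and was higher in 10 of 12 mice (log2FC 0.46, SE 0.113, adjusted p = 0.00856). The scavenger receptor Stab1 had medians of 143.6 and 85.8 CPM (0.57, adjusted p = 0.000127). The TAM receptors split: Axl was lower, while Tyro3 was called higher (2.95, adjusted p = 0.00757) from levels of 0.0233 to 2.25 CPM against 0 to 0.644 CPM. With the index of other brain cells as a covariate, 4 of the 26 genes were higher. Mfge8 (adjusted p = 0.685) and Tyro3 (adjusted p = 0.171) lost their calls in that fit. Msr1, a class A scavenger receptor, was lower (-0.79) and lost its call without the midbrain of mouse 6 (-0.59, adjusted p = 0.0996). Of 9 Fc receptor genes, Fcrls and Fcrl1 (log2FC 0.36, adjusted p = 6.54e-05) were higher in all 12 mice, and Fcgr4 was lower in 11 (-0.64, adjusted p = 0.00115).

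Lysosomal genes were called in both directions. Of 42 genes, 6 were higher and 5 lower, against 9 and 7 with mouse as a block. Ctss, cathepsin S, which trims the invariant chain in antigen-presenting cells, ranged from 9953 to 12300 CPM in the striatum and from 12090 to 16060 CPM in the midbrain and was lower in all 12 mice (log2FC -0.37, SE 0.0481, adjusted p = 3.57e-06). Cathepsin C, Ctsc, was lower in all 12 mice as well (-0.42, adjusted p = 1.04e-05), and cathepsins H (Ctsh, -0.26) and E (Ctse, -1.98) in 11. Ctsa, the protective protein cathepsin A, was higher, with medians of 2085 and 1739 CPM (0.27, adjusted p = 0.00124), as was the acid glucosidase Gaa (0.41, adjusted p = 0.00396). These 2 were the only higher calls left without mouse 12. With the index of other brain cells as a covariate, 0 lysosomal genes were called higher and 4 lower.

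Many genes induced by amino acid shortage through the factor ATF4 were lower in the striatum. The list was added after the values had been seen. Of 34 genes, 15 were lower and 1 higher (median log2FC -0.29), with 12 to 16 called lower in the leave-one-out fits and 7 with the index of other brain cells as a covariate. Asns, asparagine synthetase (chromosome 6, 7675169 to 7693254, minus strand), ranged from 0.931 to 3.13 CPM in the striatum and from 5.13 to 11.1 CPM in the midbrain, without overlap (log2FC -2.04, SE 0.294, adjusted p = 1.51e-05). Mthfd2, a mitochondrial folate enzyme, ranged from 12.5 to 34.4 CPM against 25.5 to 66 CPM (log2FC -0.98, SE 0.142, adjusted p = 1.51e-05). Slc1a4, a neutral amino acid transporter, ranged from 6.06 to 13 CPM against 13.9 to 28.4 CPM, again without overlap (log2FC -0.95, adjusted p = 1.51e-05). The stress-induced gene Nupr1 (log2FC -0.90), the pseudokinase gene Trib3 (-1.52) and Eif4ebp1 (-0.64), a repressor of cap-dependent translation, were lower in all 12 mice. The transporters Slc7a1 (-0.69), Slc7a5 (-0.41) and Slc38a2 (-0.56) were lower in 11. Psat1, of serine synthesis, was higher (0.43, adjusted p = 0.00523). Atf4 itself had medians of 121.9 and 168.9 CPM (-0.48) and lost its call without mouse 3 (-0.43, adjusted p = 0.0503) or 12 (-0.42, adjusted p = 0.0637).

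Promoter stretches of Asns and Nupr1 are shown for the composite C/EBP-ATF element through which ATF4 acts, searched as TGATGNAA on both strands and given in capitals.
Asns (chr6:7693214-7693243, minus strand): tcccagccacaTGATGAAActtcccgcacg
Nupr1 (chr7:126625562-126625591, minus strand): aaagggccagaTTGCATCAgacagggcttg
The element lay in 9 of 27 list members with an entry, 2 of 12 called and 7 of 15 not called, against 2.51% of tested genes with an entry.

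Cholesterol genes were called in both directions. Cyp51, an enzyme of cholesterol synthesis, was lower in 10 of 12 mice, with medians of 16.9 and 26.2 CPM (-0.55, adjusted p = 0.00111). The exporter genes Abcg1 and Abca1 (0.42, adjusted p = 0.00099) and the fatty acid enzyme genes Scd2 (0.65, adjusted p = 3.14e-05) and Fasn (0.93, adjusted p = 0.00142) were higher in all 12 mice. In all, 5 of 28 genes were lower and 4 higher. Leaving out mouse 12 left 2 of the lower calls, and among those lost were Hmgcs1 (-0.28, adjusted p = 0.0571), of sterol synthesis, and Insig1 (-0.65, adjusted p = 0.055), which restrains it. Of 22 glycolysis genes 2 were higher and 2 lower, among them Pfkl, a phosphofructokinase (0.31, adjusted p = 0.0154), and the lactate exporter Slc16a3 (-0.36, adjusted p = 0.00255).

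All 13 protein-coding mitochondrial transcripts had a positive log2FC (median 0.54) and 4 were called higher, each in 11 of 12 mice. mt-Nd5, a subunit of complex I, ranged from 428.1 to 645.4 CPM in the striatum and from 277.5 to 482.7 CPM in the midbrain (log2FC 0.54, SE 0.0891, adjusted p = 0.0001). mt-Nd6 (0.56), mt-Nd4 (0.47) and mt-Cytb (0.39) were the others. Nuclear copies of the mitochondrial genome can share these reads. With GC content and length trends removed, 8 of the 13 were called.

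Many genes of mitosis, all at low levels, were lower in the striatum. Of 28 genes, 14 were lower and 0 higher, 27 had a negative log2FC and the median was -0.96. Their summed level ranged from 43.5 to 85.0 CPM in the striatum and from 58 to 130.1 CPM in the midbrain, and was higher in the striatum of 1 mouse. Cdk1, the kinase that starts mitosis, ranged from 2.58 to 5.2 CPM against 4.38 to 11.1 CPM and was lower in all 12 mice (log2FC -0.98, SE 0.14, adjusted p = 1.21e-05). Top2a, which untangles chromosomes, ranged from 0.816 to 3.90 CPM against 1.71 to 8.68 CPM (-1.19, SE 0.326, adjusted p = 0.0192). Aurka (-1.13, adjusted p = 0.000565) and Aurkb (-1.23, adjusted p = 0.00466), the Aurora kinases, Birc5 (-1.42), Nusap1 (-1.41), Ube2c (-1.34), Cdc20 (-0.94) and Ccna2 (-0.36) also kept their calls in every leave-one-out fit. The number called fell to 9 without mouse 3, and was 3 among mice 1 to 6 and 3 among mice 7 to 12, each fitted alone. Of 33 DNA replication genes, a list added after the values had been seen, 8 were lower and 0 higher, and 3 remained without mouse 2. With mouse as a block 11 were lower and 1 higher. Rfc2, a subunit of the clamp loader, ranged from 142.6 to 209.3 CPM against 212.4 to 280.8 CPM, without overlap (log2FC -0.39, SE 0.0588, adjusted p = 2.76e-05). Mcm5, of the replicative helicase (-0.49, adjusted p = 0.00247), and E2f1, a factor of S-phase entry (-0.99, adjusted p = 0.00174), were the other 2 calls kept in every leave-one-out fit.

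Promoter stretches of 4 mitosis genes are shown for the cell cycle homology region, the element bound by the DREAM complex, searched as TTTGAA on both strands and given in capitals.
Cdk1 (chr10:69352913-69352938, minus strand): accgcggcgagTTTGAAactgctggc
Ube2c (chr2:164769889-164769916, plus strand): gagggttgcaaTTCAAAcgcgggcggcg
Cdc20 (chr4:118437345-118437372, minus strand): gacagttgggtTTTGAAggagccaatga
Top2a (chr11:99024190-99024257, minus strand): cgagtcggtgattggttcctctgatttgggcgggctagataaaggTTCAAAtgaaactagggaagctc
The 6-letter element lay in 8 of 23 list members with an entry, 6 of 12 called and 2 of 11 not called, against 13.2% of the tested genes with an entry and 16% of all start sites.

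Called actin genes were mostly lower, and called microtubule genes went both ways. Of 46 actin and adhesion genes, 11 were lower, 2 higher and 33 not called, with 7 of the lower and both higher calls kept in every leave-one-out fit. Anxa2, a membrane-actin linker, ranged from 1.33 to 4.55 CPM in the striatum and from 4.96 to 10.3 CPM in the midbrain, without overlap (log2FC -1.31, SE 0.22, adjusted p = 0.000128). Actr3, of the Arp2/3 complex that branches actin, had medians of 290.4 and 350.5 CPM (-0.27, adjusted p = 0.00022), and the actin-binding Coro1a of 825.9 and 984.4 CPM (-0.24, adjusted p = 0.00139). Both were lower in all 12 mice. The non-muscle myosin gene Myh9 (0.93, adjusted p = 0.00206) and the integrin adaptor gene Tln1 (0.92, adjusted p = 0.01) were higher in 11 of 12. With the index of other brain cells as a covariate, 0 actin and adhesion genes were called higher and 9 lower. Of 48 microtubule and motor genes, 8 were higher and 5 lower, with 5 calls in each direction kept in every leave-one-out fit. With mouse as a block, 9 were higher and 9 lower. The tubulin genes Tuba1c (-0.87, adjusted p = 0.000291), Tubb4b (-0.56, adjusted p = 0.00075), Tuba1b (-0.37) and Tubb2a (-0.54) were lower, with the reservation that tubulin genes share long stretches of near-identical sequence. Macf1, which links microtubules to actin, was higher (0.79, adjusted p = 0.000185), as were Map7d1 (0.94, adjusted p = 0.00603) and the kinesin gene Kif21b (0.53, adjusted p = 0.000739). With GC content and length trends removed, 5 microtubule genes were higher and 7 lower, and with the index 3 were higher and 3 lower.

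Transcription factors of the microglial and macrophage lineages were called at shares near those over all genes. Of 31, 2 were higher (6.45%) and 1 lower (3.23%), against 4.18% and 3.27% over all genes. With GC content and length trends removed, 1 was higher and 5 lower. Irf8, which is required for the lineage, was lower in 11 of 12 mice (log2FC -0.17, adjusted p = 0.0127), while Sall1 and Rxra were higher. The call of Rxra was lost without mouse 2 (adjusted p = 0.0651), among others. Of 20 genes of the TGF-beta pathway, which sustains the homeostatic state, only the co-repressor gene Ski was called (0.25, adjusted p = 0.00734). Of 40 histone methyltransferase and chromatin remodelling genes, a list added after the values had been seen, 13 were higher and 0 lower, and 33 had a positive log2FC. Kmt2d, which methylates histone H3 lysine 4 at enhancers, ranged from 20.9 to 43.3 CPM against 9.10 to 28 CPM and was higher in 11 of 12 mice (0.96, SE 0.194, adjusted p = 0.00142). Arid1a, of the BAF remodelling complex, had medians of 60.7 and 36.9 CPM (0.77, adjusted p = 0.000926). Kmt2a (0.83), Bptf (0.92), Setd1b (0.64) and Ncor1 (0.39) were among the other calls kept in every leave-one-out fit. The count was 8 without mouse 2, 5 or 12, 8 with GC content and length trends removed, and 1 with the index of other brain cells as a covariate, where Kmt2d had a log2FC of 0.55 (adjusted p = 0.0743).

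Of 30 immediate early and dissociation-induced genes, which mark the stress of tissue handling, 2 were lower and 0 higher. With mouse as a block 6 were lower and 2 higher, and DESeq2 called 5 lower. Klf6, an early-response factor, ranged from 624.9 to 1344 CPM against 1011 to 2083 CPM and was lower in all 12 mice (log2FC -0.75, SE 0.109, adjusted p = 1.57e-05). The summed level of the list ranged from 30730 to 66590 CPM in the striatum and from 41120 to 67940 CPM in the midbrain, and was higher in the striatum of 4 mice. Of 24 ion channel and pump genes, 1 was higher and 3 lower (3 and 4 with mouse as a block). Trpm2, a calcium channel opened by oxidative stress, was higher (0.60, adjusted p = 0.000937), and Kcna3, the potassium channel Kv1.3 of activated microglia, was lower in all 12 mice (-1.14, adjusted p = 0.0026).

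Transcripts of local neurons were present at low levels, and called genes of striatal and forebrain type followed the region. Of 16 striatal neuron genes, 9 were higher in the striatum (7 kept in every leave-one-out fit), with a summed level of 17.6 to 33.3 CPM against 5.95 to 12.5 CPM. Ppp1r1b, the dopamine signalling protein DARPP-32 of striatal projection neurons, ranged from 2.70 to 9.94 CPM against 0.117 to 2.22 CPM (log2FC 2.08, SE 0.452, adjusted p = 0.00284). Ranges were also apart for Arpp21, as given for the check of the labels, and for Meis2, at 0.305 to 1.71 CPM against 0 to 0.283 CPM. Of 9 forebrain patterning genes, 7 were higher. Dlx1, a homeobox gene of forebrain inhibitory neurons, ranged from 0.0765 to 1.43 CPM in the striatum and was at 0 in all 12 midbrain libraries. Th, the enzyme that makes dopamine, showed the reverse at a trace level, with medians of 0 and 0.182 CPM and no more than 0.02 CPM in any striatum library (adjusted p = 0.00332). It exceeded 3 counts in 7 of 12 midbrain libraries. Th was the only call among the 7 midbrain neuron genes in the table, of 20 listed, and 2 of the 7 had a positive log2FC. A match of midbrain neuron transcripts to the region therefore rests on this gene alone.

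Of 20 pan-neuronal genes, 8 were higher in the striatum (7 kept in every leave-one-out fit), and the summed level was higher in all 12 mice, at 20.7 to 44.3 CPM against 12.1 to 25.7 CPM. Camk2a, a kinase of excitatory synapses, ranged from 2.62 to 6.52 CPM against 0.911 to 2.73 CPM (log2FC 1.22, SE 0.195, adjusted p = 6.81e-05). Of 20 astrocyte genes, 6 were higher. A positive log2FC was seen for 17 of the 20 (median 0.66). The summed level of all 20, at 43030 to 65650 CPM against 37100 to 60990 CPM, was higher in the striatum of only 2 mice. No called astrocyte gene with a level given here exceeded 263.3 CPM, so other members set that sum. Besides Slc1a2 and Clu, Slc1a3, the glutamate transporter GLAST, ranged from 193.5 to 263.3 CPM against 155.4 to 200.7 CPM (0.38, adjusted p = 1.93e-05), and Plpp3 (1.08) and the metallothionein gene Mt3 (1.03) were called as well. The defining astrocyte genes Gfap (-0.35, adjusted p = 0.641), Aqp4 (0.39, adjusted p = 0.669) and Aldh1l1 (0.72, adjusted p = 0.214) did not pass. Mlc1 (1.14) lost its call without mouse 10 (0.99, adjusted p = 0.095). Of 15 oligodendrocyte genes, only Opalin was called (1.83, adjusted p = 0.0481). The call of Opalin was lost without mouse 12 (1.62, adjusted p = 0.103). Of 42 genes of oligodendrocyte precursors, endothelial cells, pericytes and T, B and NK cells, edgeR called 0 (5 had an unadjusted p under 0.05) and DESeq2 called 1, an endothelial gene. All 14 endothelial genes had a positive log2FC (median 0.80), their summed level was higher in the striatum of 11 mice, and the fit with mouse as a block called 2 of them. Of the 15 oligodendrocyte genes, 14 had a positive log2FC (median 0.95), and their summed level was 460.1 to 1097 CPM against 468.6 to 691.3 CPM, higher in the striatum of 8 mice. With the index as a covariate, 2 genes of T, B and NK cells were called lower. The part of these transcripts in the differences of microglial genes was not tested beyond the fit with the index as a covariate. That index holds neuron, astrocyte, oligodendrocyte and endothelial markers, and none of the other cell types of this paragraph.

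Transcripts of blood-borne and border cells stood out in single libraries. Of 13 genes of monocytes, neutrophils and dendritic cells, only Ly6c2 was lower and only Ccr2 higher (log2FC 0.88 to 1.12 over 11 other fits). Neither call was kept in every leave-one-out fit. Of 15 border macrophage genes, only Ms4a7 was lower and only Stab1 higher. The monocyte gene Ly6c2 (log2FC -3.92) had a log2FC of -0.71 without the midbrain of mouse 6 (adjusted p = 0.863), and Ms4a7 (-3.27, adjusted p = 0.0364) one of -1.42 (adjusted p = 0.235). Both calls depended on that library. Jchain, the joining chain of secreted immunoglobulins, was 42.1 CPM in the midbrain of mouse 6, and without it the log2FC went from -7.05 to -3.63 (adjusted p = 0.0638). The plasma cell factor Xbp1, which microglia express as well, was lower in the striatum of all 12 mice (-0.32, adjusted p = 0.00972). Of 10 plasma cell genes, a list added after the values had been seen, 3 were lower and 1 higher. The higher gene, Tnfrsf17 (log2FC 0.51 to 0.68 over 11 other fits), kept its call in every leave-one-out fit.

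**Figure D4:**
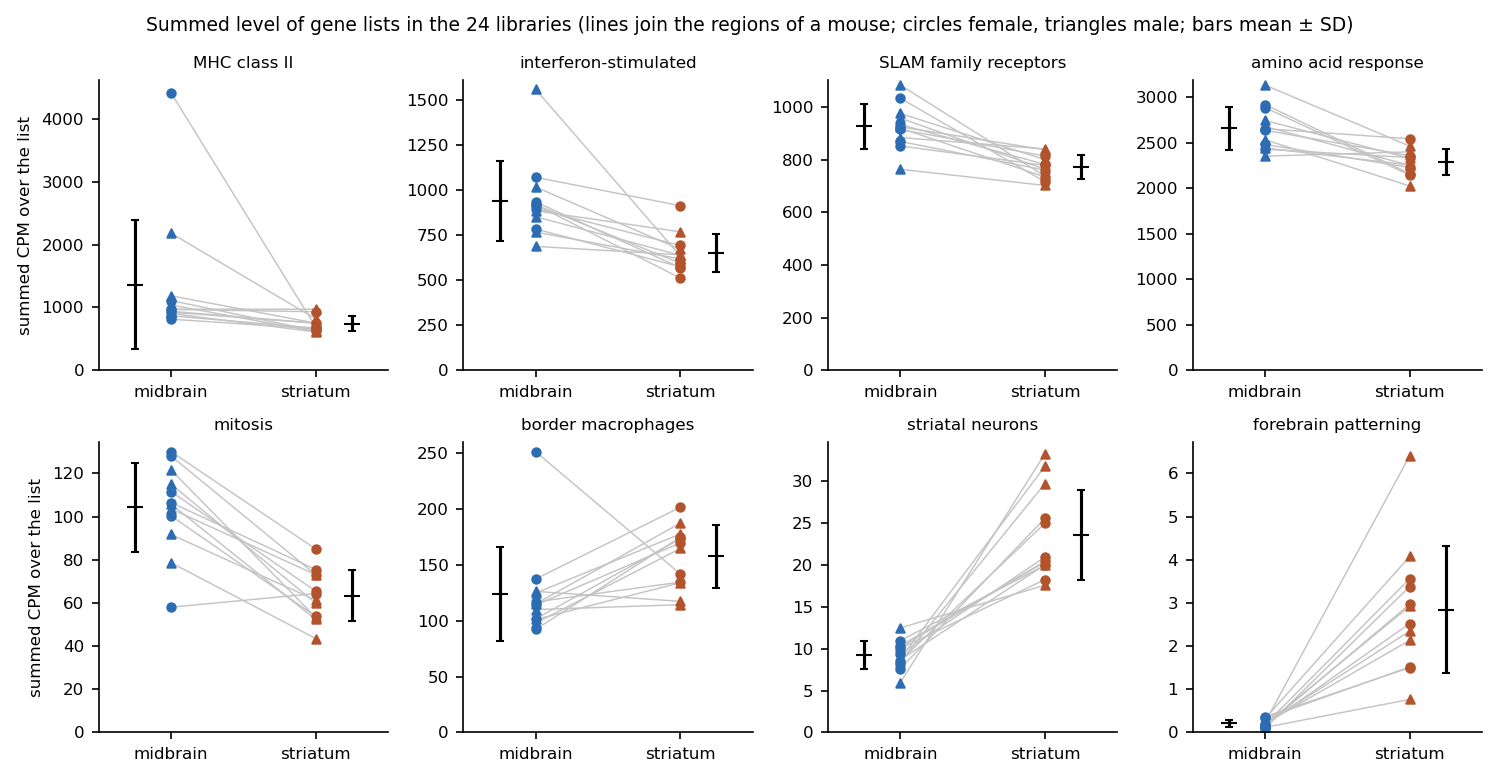
Summed CPM of 8 gene lists in each of the 24 samples, with circles for female and triangles for male mice and bars for the mean and SD of each region (n = 12). The MHC class II panel shows the midbrain library of mouse 6 at 4423 CPM, far above the others, while the striatal neuron panel shows striatum samples at 17.6 CPM or more and midbrain samples at 12.5 CPM or less.

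The regional difference was then compared between the sexes. No gene had a difference between regions that itself differed between males and females: the interaction called 0 of 21236 genes (0%) with edgeR and 0 with DESeq2, and 584 genes had an unadjusted p under 0.05. Pdcd1 had a log2FC of -1.88 in males and -1.86 in females, Ptger3 of 1.52 and 1.52, Clu of 1.78 and 1.76, and Capg of -1.05 and -1.10. Gpr65 had -1.39 and -1.98, and Lrp1 0.97 and 1.21. With 6 mice of each sex, these figures do not show that the sexes are alike.

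The prefrontal cortex, given here for orientation and without a test, did not place all genes in the same order. Its 11 samples ranged from 3.19 to 10.6 CPM for Pdcd1 (median 4.42), from 18.2 to 40.1 CPM for Capg (median 32.7) and from 4.90 to 9.88 CPM for Gpr65 (median 7.65). For these genes the cortical median lay below the striatal one, so that the midbrain held the highest level of the 3 regions. The same order held for Spp1 (median 5.92 CPM), Asns (1.11 CPM), Axl (9.18 CPM) and H2-Ab1 (22.3 CPM). Ptger3 had a cortical median of 28.8 CPM, above both regions. In contrast, Lrp1 (153.6 CPM), Clu (15.7 CPM) and Slc1a2 (11.9 CPM) had cortical medians between those of midbrain and striatum, and Ccdc88b (11.9 CPM) lay below both. Cortical samples spread widely for Clu, from 9.67 to 80.5 CPM.

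Base composition moved with the regional difference over genes of at least 1 CPM. In the quintile of lowest GC content (27.5% to 43.8%), 1.80% of genes were called higher and 7.67% lower, and in the quintile of highest GC content (55.3% to 82.9%), 11.9% were higher and 2.96% lower. The slope of log2 level on GC content, per 10 percentage points, had a median of 0.0568 over striatum libraries and -0.0492 over midbrain libraries, and the ranges overlapped (-0.0638 to 0.166 and -0.124 to 0.0151). Higher genes were also longer, with a median exon length of 5184 bases against 3793 for lower genes. After these trends were removed, the 2 quintiles held 3.76% higher and 7.03% lower, and 5.40% higher and 8.59% lower. The 36 genes named for their size or p kept their calls in that fit. Of all 277 genes called in the lists or named, 32 lost theirs, among them Sall1 (log2FC 0.24, adjusted p = 0.056), Timp2 (0.08, adjusted p = 0.183), B2m (-0.17, adjusted p = 0.21), Cd84 (-0.15, adjusted p = 0.057), Kif21b (0.25, adjusted p = 0.0774), Pfkl (0.15, adjusted p = 0.215), Ski (0.13, adjusted p = 0.154) and Setd1b (0.30, adjusted p = 0.255).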

How the data were processed

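RNA of tdTomato-positive microglia, sorted from the striatum, midbrain and prefrontal cortex of adult mice, was amplified with a Smart-Seq HT kit and made into Nextera XT libraries. The authors deposited 1 table of raw counts per gene; per the study's methods, reads were checked with FastQC, trimmed with Trimmomatic and aligned with HISAT2 to GRCm38, and weakly expressed genes were removed. The counting tool, its annotation and its strand setting are not given in the sources used here. The table holds 21236 genes and 35 samples; genes were matched to GENCODE M21, with 133 left without a symbol.

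Counts were fitted in edgeR 4.0.16 (R 4.3.3) with TMM scaling and a robust quasi-likelihood model whose terms, region and sex, follow the study's own design; all 35 samples entered, with Benjamini-Hochberg correction over all genes and a threshold of 0.05. CPM use the TMM-scaled library sizes. Totals ranged from 39462648 to 54131421 counts, which put the floor of 3 counts at 0.0554 to 0.076 CPM before TMM scaling. The floor covers counting error only, while the SE of a log2FC came from the fit and includes the spread between samples. Groups came from the labels; the S number of the titles was read as the mouse number that links regions. Deviations of same-mouse samples correlated at -0.1 to 0.34 (mean 0.17 over 12 mice and 12547 genes; -0.033 for the 60 pairs of other mice of the same sex), 7 of 12 striatum samples correlated best with their own partner, and the fit with mouse as a block is given where it ended a call or moved a count of 3 or more calls by over 1.5 times. Named genes were the 12 in each direction with the largest log2FC among called genes of at least 5 CPM in the higher region that changed alike in all 12 mice, and the 8 in each direction with the lowest p, plus called members of the lists. Members, lists and tests were chosen with earlier results of these data known, and 5 lists beyond the first 38 were added after the values had been seen. On simulated counts for this comparison (21236 genes, 200 changed), 44 of 60 genes changed 1.5-fold, 69 of 73 changed 2-fold and 67 of 67 changed 4-fold were called, with 13 unchanged genes called. The changed genes all had a mean of at least 1 CPM. Samples were simulated as independent, without mouse effects or GC trends, so these rates may not hold for the data. Alternatives were DESeq2 1.42.0, its size factors, filterByExpr, other sample sets, leaving out each mouse, covariates, and, chosen after seeing the data, offsets for GC content and length and leaving out the midbrain of mouse 6. Promoters came from a RefSeq table (GRCm38.p6); the 250 bases before each start were searched. Results for a few genes are not reported here.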

Additional observations from a re-analysis of the deposited data

How the results depend on the processing

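Counts of called genes (higher, lower) within 1.5 times those reported came from DESeq2 (1091, 919), its size factors in edgeR (876, 717), filterByExpr (828, 773 of 16966 genes), only the 24 samples of both regions (1039, 870), without the striatum sample of mouse 3 (892, 659), mice 7 to 12 (670, 538), the study's call rule, a region effect at an adjusted p under 0.05 with an unadjusted pairwise p under 0.05 and a fold change over 1.2 (743, 632; 637 and 478 of the reported genes shared), without the midbrain of mouse 6 (797, 577) and GC content and length offsets (755, 953). Leaving out 1 mouse gave 603 to 851 higher and 496 to 813 lower. Counts moved further with mouse as a replicate block (1410 higher, 1066 lower; 838 and 652 of the reported genes shared), with the block and the offsets together (1065, 1411), in mice 1 to 6 (121, 95), in males (53, 41), in females (190, 190) and with the index of other brain cells (254, 423). Fewer mice in the fit also mean fewer degrees of freedom; the cause of the other moves was not tested. The interaction with sex stayed at 0 in every fit run. The 36 genes named by size or p kept their calls under DESeq2, the size factors, the filter, the block, every left-out mouse and the offsets; the index removed Ptn and Gpm6b, mice 1 to 6 alone lost Ptn, Spp1 and Cyp4f18, and mice 7 to 12 alone lost Agt and Ifi204. Of all 277 genes called in the lists or named, 159 kept their calls with the index and 245 with the offsets. Calls lost with the block, beyond those given above, were C2, Mlc1, Opalin, Dynlrb2, Ms4a7 (-1.74, adjusted p = 0.223), Ly6c2 and Igkc (-1.97, adjusted p = 0.122). Direction turned for Ly6c2 in mice 7 to 12 (0.22, adjusted p = 0.934) and for Mlc1 with the index (-0.10, adjusted p = 0.927), which holds Mlc1 itself. Depth left genes under about 0.076 CPM undetectable in the shallowest library.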
